A study of Schmidtea mediterranea with 8 samples.

Results

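The transcripts described here are the abundant planarian transcripts most concentrated in Xins cells, the irradiation-insensitive fraction of the planarian Schmidtea mediterranea. They were chosen by their values in these same libraries. Mean RPKM (reads scaled to transcript length and library size) was taken over 4 Xins and 4 X1 libraries, and 5 transcripts (AGAT-1, zpuf-4, zpuf-5, zpuf-6 and pla2) were set aside. Among the 1280 remaining transcripts with a mean of at least 100 RPKM in Xins, the 150 with the highest Xins to X1 ratio were kept, where the ratio is (mean Xins + 1) / (mean X1 + 1). These 150 members are part of a table of 17882 transcripts. Because the rule used the contrast between the fractions, that contrast is given below as a description and without a test.

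Both fractions came from adult worms of the asexual CIW4 strain, with no treatment given for these libraries, and were sorted by flow cytometry after Hoechst staining of DNA. Xins is the gate that persists after irradiation and is a mixture of mostly post-mitotic cells of many tissues. X1, the comparison, is the gate that irradiation removes, and holds neoblasts with replicated DNA. Nothing in the labels says whether the 4 replicates of a fraction came from separate cultures, so errors cover the spread between these libraries only. In such bulk RNA, a lower level can come from fewer cells of a type or from less RNA per cell, and these cannot be told apart.

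Neoblasts are the only dividing somatic cells of planarians and replace every tissue. Their best described descent is the epidermal lineage, in which progeny leave the cell cycle, pass through the mesenchyme while switching on AGAT-1, and later settle in the epidermis. The transcription factor p53 and the chromatin remodeller CHD4 are both needed for neoblast progeny to form. Transcripts lowered in both knockdowns include transcripts of such progeny.

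Libraries held between 14323705 and 15523242 recovered reads. The fractions carried the markers of their labels. Piwi-like protein 1 (SMED30007406), which guards neoblast genomes, was at 53.1 ± 22.9 RPKM in Xins and 2104 ± 157 RPKM in X1 (SD, n = 4 each), and all 7 replication transcripts (PCNA and the MCM helicase subunits) were higher in every X1 library than in any Xins library. None of the markers was a member. The 21 transcripts with a neoblast in situ pattern summed to 738 to 1103 RPKM in Xins libraries and 6016 to 6686 RPKM in X1 libraries, so these transcripts were also detected in Xins. Of the 21, 19 were higher in every X1 library than in any Xins library, and 1 went the other way. Of 15563 transcripts tested with limma over the whole table, 41.7% passed as higher in Xins and 35.5% passed in the direction of X1.

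The members made up a sizeable part of the Xins transcriptome. They held 17.2% ± 0.673 of summed RPKM in Xins libraries (16.3% to 17.9%) and 0.0728% ± 0.0343 in X1 libraries (0.0393% to 0.110%). As shares of recovered reads, which do not weight short transcripts up, these were 11.7% ± 0.652 in Xins and 0.0484% ± 0.0224 in X1 (SD, n = 4 each). The lowest X1 library, replicate 1, gave 0.0263% (95% Wilson interval 0.0255% to 0.0272%) and the highest, replicate 3, gave 0.0720% (0.0707% to 0.0734%), intervals that cover counting error only. All 150 members had every Xins library above every X1 library, a separation seen in 38.8% of all transcripts and one that the choice of members favours.

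**Figure D1:**
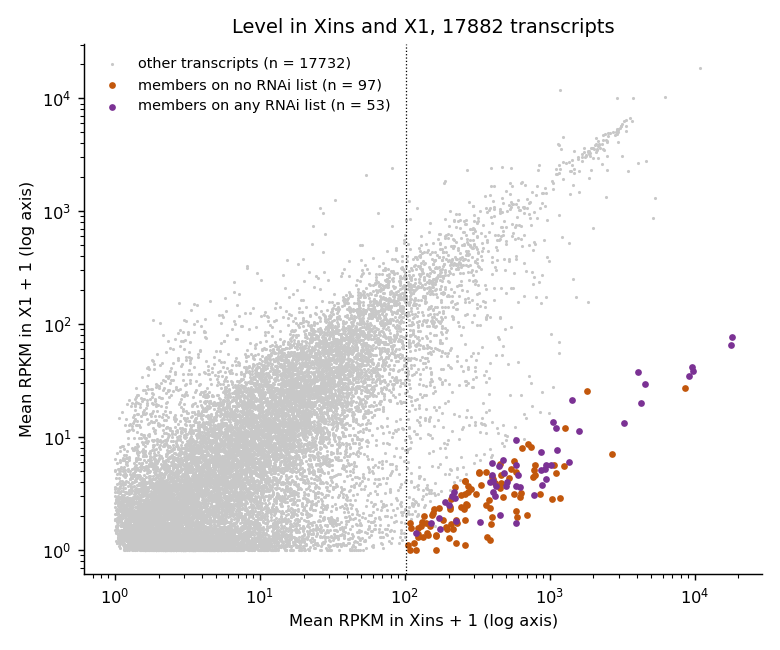
Mean RPKM + 1 in Xins (horizontal, log axis) against mean RPKM + 1 in X1 (vertical, log axis) for each transcript, with the dotted line at the minimum of 100 RPKM in Xins. The 150 members form the lower right edge, and the 53 members on an RNAi list include 8 of the 9 at 4000 RPKM or more in Xins.

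Member levels in Xins spanned more than 2 orders of magnitude, from 104 to 17984 RPKM, with a median of 400.1 RPKM. In X1 they ran from 0 to 75.8 RPKM with a median of 2.18 RPKM. Put per member, the X1 mean was 0.503% of the Xins mean in the median and 1.46% at most. For the other 1130 transcripts of at least 100 RPKM in Xins, the median was 108%, since most transcripts abundant in Xins were as abundant in X1. The median log2 difference of the members (Xins minus X1, on the log2(RPKM + 1) scale) was 6.94, beside 0.14 over all 17882 transcripts.

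Abundance was unevenly spread over the members. Of the 15 transcripts at 4000 RPKM or more in Xins, 9 were members, and these 9 carried 55.0% of the members' summed RPKM. At 1000 RPKM or more there were 25 members among 147 transcripts, and 93 members lay under 500 RPKM. Members took 6 of the 10 highest places in Xins, 9 of the highest 20 and 13 of the highest 100.

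The highest ratio, 408, belonged to SMED30024584, which the study's tables do not annotate. It was at 952, 1363, 1367 and 1011 RPKM in Xins libraries 1 to 4 and at 0.764, 1.29, 2.97 and 2.49 RPKM in X1 libraries 1 to 4. SMED30006007 followed with a ratio of 381, from 2154, 3605, 2824 and 2228 RPKM in Xins and 5.02, 5.38, 7.17 and 6.82 RPKM in X1. Its X1 libraries lay close together (6.10 ± 1.06 RPKM, SD, n = 4, from 182 reads). SMED30018331 had a ratio of 361, with 848, 1318, 1090 and 860 RPKM in Xins against 0.788, 0.846, 2.68 and 3.11 RPKM in X1.

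Other members near the top rested on very few X1 reads. SMED30000802 was at 289, 612, 330 and 316 RPKM in Xins and had 5 reads in X1, all in replicate 4 (0.955 RPKM). SMED30019424 was at 230.2, 536, 330 and 374 RPKM in Xins and had 3 reads in X1, in replicates 1 (0.769 RPKM) and 2 (0.413 RPKM). In both, the X1 level is close to what single reads give, so the order among the highest ratios is not resolved at this depth. SMED30025756 (692 ± 173 RPKM in Xins and 1.04 ± 0.584 RPKM in X1) and SMED30009891 (591 ± 150 RPKM in Xins and 0.967 ± 0.860 RPKM in X1) had ratios of 340 and 301 and the same recovered length, 409 bases. Whether they share sequence was not examined, and reads of near-identical transcripts may have been split or dropped between them.

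The remaining members of the first 12 covered a wide range of levels. SMED30013734 averaged 852 ± 213 RPKM in Xins and 2.15 ± 1.87 RPKM in X1. SMED30030170 averaged 586 ± 112 RPKM in Xins and 1.22 ± 0.861 RPKM in X1. Neither is named in the study's tables. In those tables, which give hits only for listed or cloned transcripts, SMED30018781, with a ratio of 336, alone of the 12 has one. That hit is Venom allergen 5, a secreted protein of the cysteine-rich CAP superfamily first described in wasp venom. SMED30018781 was at 374, 775, 495 and 706 RPKM in Xins. In X1 it was at 0, 0.343, 2.66 and 0 RPKM, so that its X1 signal came mostly from replicate 3.

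**Figure D2:**
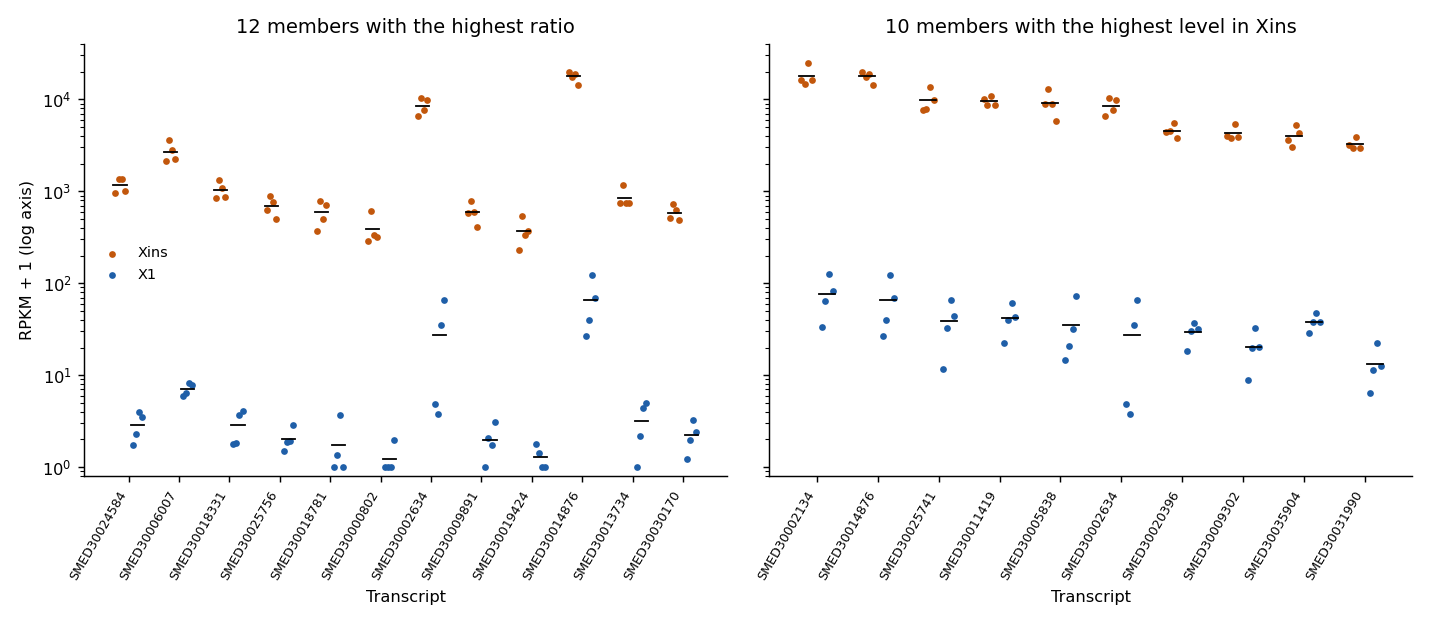
RPKM + 1 (log axis) in each Xins library (orange) and X1 library (blue) for the 12 members with the highest ratio (left) and the 10 with the highest level in Xins (right); black bars are the means of 4 libraries. The fractions do not overlap in any of them, and the X1 points of SMED30002634 spread from 2.75 to 64.5 RPKM.

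A set of 3 members had no read in any X1 library and were picked out after their values were seen. SMED30003541 was at 123, 204, 174 and 154 RPKM in Xins, from 1688 reads. SMED30016731 was at 111, 213, 71.4 and 80.4 RPKM, from 2819 reads, and SMED30030588 at 85.0, 138, 95.8 and 108 RPKM, from 623 reads. With the limit that a count of 0 allows (3 reads over the 4 X1 libraries), they were at least 468-fold, 781-fold and 172-fold higher in Xins, in that order. Their ratios as the rule computes them were lower, at 165, 120 and 108, because of the 1 added to both means.

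The most abundant members were largely transcripts that fell in p53(RNAi) worms. SMED30002134 was the most abundant transcript of the whole Xins fraction, with 16114, 14725, 24786 and 16312 RPKM in Xins and 32.0, 63.5, 126 and 81.4 RPKM in X1. SMED30014876 was second, with 19971, 17627, 18968 and 14445 RPKM in Xins and 26.0, 39.3, 122 and 68.7 RPKM in X1. In both, the highest X1 library was replicate 3 and the lowest was replicate 1, with a gap of several fold between them. Their means of 17984 ± 4589 and 17753 ± 2405 RPKM in Xins did not differ beyond the spread between libraries.

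SMED30025741 (9769 ± 2816 RPKM in Xins and 37.7 ± 22.8 RPKM in X1) and SMED30011419 (9592 ± 1112 RPKM in Xins and 40.6 ± 15.9 RPKM in X1) came next. SMED30005838 (9095 ± 2893 RPKM in Xins and 33.9 ± 26.0 RPKM in X1) and SMED30002634 (8569 ± 1815 RPKM in Xins and 26.4 ± 29.4 RPKM in X1) completed a group of 4 whose Xins means lay within 1 SD of each other. After a gap followed SMED30020396 at 4543 ± 697 RPKM in Xins and 28.3 ± 7.97 RPKM in X1, SMED30009302 at 4281 ± 734 and 19.2 ± 9.55 RPKM, SMED30035904 at 4031 ± 958 and 37.0 ± 7.83 RPKM, and SMED30031990 at 3242 ± 460.1 and 12.3 ± 6.82 RPKM, with Xins given first in each pair. Of these 10 members, 8 are on the p53-only list. SMED30005838 was lowered in both RNAi conditions, and SMED30002634 is on no list. No protein hit is given for any of the 10, and 9 of them have recovered lengths between 270 and 835 bases, while SMED30031990 has 1588.

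The X1 libraries differed in how much member RNA they held. Summed over the 150 members, the X1 level was 0.225%, 0.324%, 0.726% and 0.713% of the mean Xins sum in replicates 1 to 4. Replicates 3 and 4 were also above 1 and 2 per member, with medians of 0.196%, 0.230%, 0.674% and 0.758%, and 27, 30, 13 and 7 members at 0. Of the 147 members with any X1 read, 137 had their highest X1 level in replicate 3 or 4, as did 1019 of the other 1130 abundant transcripts. Both of these libraries lay above replicates 1 and 2 in 109 of the 150 members and in 488 of the 1130 others. The mean of replicates 3 and 4 exceeded that of 1 and 2 in 90.7% of members and in 90.9% of those others. Relative to its X1 mean, a member's median level was 0.407, 0.489, 1.39 and 1.51 in replicates 1 to 4, and that of the others was 0.838, 0.991, 0.990 and 1.18, so the gap between these libraries was wider for the members.

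Markers moved with this pattern in part. AGAT-1 was at 2.80, 1.89, 5.70 and 5.78 RPKM and zpuf-6 at 3.02, 3.33, 8.18 and 15.1 RPKM in X1 replicates 1 to 4. The 38 transcripts in the table whose in situ pattern mentions the gut summed to 232, 251, 308 and 332 RPKM there and to 753 to 958 RPKM in Xins, with 31 of them higher in every Xins library and 1 of them at 0 in all X1 libraries. Of the neoblast markers in X1, Piwi-like protein 1 was at 2209, 2260, 2022 and 1925 RPKM, PCNA at 602, 826, 690 and 842 RPKM, the 7 replication transcripts summed to 1407, 1710, 1698 and 1692 RPKM, and the 21 neoblast-pattern transcripts summed to 6016, 6226, 6143 and 6686 RPKM. On the deposited scale, Piwi-like protein 1 was thus lower in replicates 3 and 4, and the neoblast-pattern sum was highest in replicate 4. The library sizes behind these RPKM values were 1.02, 0.918, 0.911 and 0.823 times the recovered reads in X1 replicates 1 to 4. A size below the reads raises every value of a library, and the order of the markers under another scaling was not examined. As shares of recovered reads, which do not use these sizes, the members stood at 0.0263%, 0.0325%, 0.0720% and 0.0627% in X1 replicates 1 to 4. Whether Xins cells or RNA carried into the X1 gate had a part in the members' X1 levels was not tested. With X1 replicates 1 and 2 alone, an alternative chosen after seeing the data, the median log2 difference of the members was 7.43, and 134 of the 150 would have been chosen again.

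**Figure D3:**
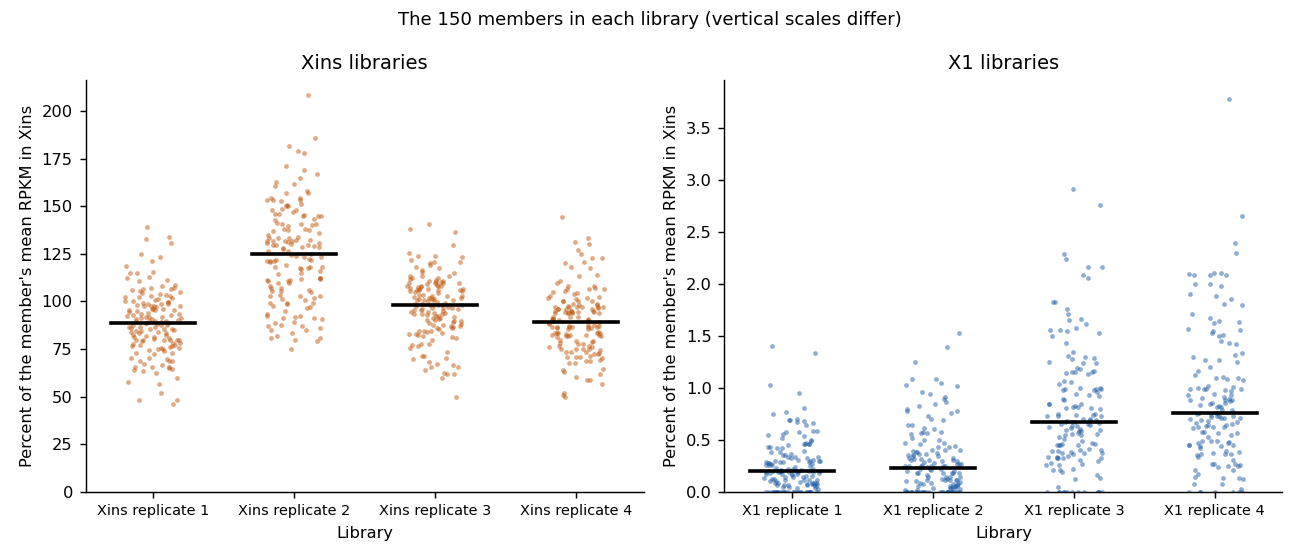
Each member's RPKM in each Xins library (left) and X1 library (right) as a percent of its mean RPKM in Xins; points are members, black bars are medians, and the vertical scales differ. The medians run from 88.9% to 125% in Xins libraries and from 0.196% to 0.758% in X1 libraries, higher in X1 replicates 3 and 4.

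For a few members a single X1 library supplied nearly all of the X1 signal. In 10 members, chosen here after their values were seen, over 70% of summed X1 RPKM came from 1 library that reached at least 2 RPKM, and this library was replicate 3 in 7 of them and replicate 4 in 3. The extreme case was SMED30032042, with 504, 1335, 539 and 1108 RPKM in Xins and 0, 0.181, 15.9 and 0.214 RPKM in X1. SMED30022805 was similar, with 261, 749, 336 and 674 RPKM in Xins and 0.407, 0.146, 10.9 and 0.688 RPKM in X1. Both are on the list of transcripts lowered in both RNAi conditions, and both were highest in Xins replicates 2 and 4. The 3 members with the widest X1 range, measured as (highest + 1) / (lowest + 1), were SMED30002634, SMED30032042 and SMED30005835. SMED30005835, on the p53-only list, was at 932, 1864, 1601 and 1312 RPKM in Xins and at 3.93, 8.06, 15.2 and 53.9 RPKM in X1.

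Within Xins, the members varied between libraries to different degrees. Their median coefficient of variation (CV, the SD as a percent of the mean over 4 libraries) was 23.7%, against 16.6% for the other 1130 abundant transcripts and 22.5% for all transcripts. Replicate 2 was the highest Xins library for 101 of the 150 members, and for 318 of the 1130 others. These are descriptions over transcripts that share the same 4 libraries, and no test was made of them.

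The steadiest members were SMED30026887, SMED30019451 and SMED30024367. SMED30026887 was at 1815, 1907, 1787 and 1765 RPKM in Xins, a CV of 3.44%, and at 18.7, 19.7, 24.5 and 36.0 RPKM in X1. SMED30019451 was at 172 ± 6.42 RPKM in Xins and 1.33 ± 0.601 RPKM in X1, and SMED30024367 at 364 ± 16.2 RPKM in Xins and 1.49 ± 1.04 RPKM in X1. The least steady was SMED30028512, with 133, 418, 100.1 and 151 RPKM in Xins, a CV of 73.0%, and 0.383, 0.617, 4.34 and 0.729 RPKM in X1. SMED30000854 (117, 237, 79.1 and 76.7 RPKM in Xins, 0.635 ± 0.588 RPKM in X1) and SMED30015362 (901, 1917, 751 and 655 RPKM in Xins, 12.5 ± 7.90 RPKM in X1) likewise owed their CVs of 58.9% and 55.2% to a high value in Xins replicate 2.

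Of the 150 members, 53 (35.3%) are on a list of transcripts that changed in whole worms after RNAi against chd4 or p53, which are other samples than the sorted cells. For the other 1130 abundant transcripts this share was 24.9%, and over all transcripts 11.8%. Transcripts lowered in both conditions made up 23 members (15.3%, against 5.22% of the others), and transcripts lowered in p53(RNAi) only made up 20 (13.3%, against 10.3%). Those lowered in chd4(RNAi) only made up 3 members (2.00%, against 5.84%), and raised transcripts made up 7 (4.67%, against 3.54%). The shares are counts with no test, and 97 members are on none of the lists.

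The p53-only members were the most abundant of these groups. Their median was 1274 RPKM in Xins and 11.2 RPKM in X1, and the 20 of them held 51.5% of the members' summed Xins RPKM. The 23 members lowered in both conditions had a median of 426 RPKM in Xins and 2.74 RPKM in X1, and the 97 on no list had 272 RPKM in Xins and 1.52 RPKM in X1. The 7 raised members, SMED30018781 and SMED30005747 among them, had a median of 582 RPKM in Xins and 2.70 RPKM in X1.

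The highest and lowest libraries were also counted by group. Among members lowered in both conditions, Xins replicate 2 was highest in 18 of 23 and replicate 4 lowest in 17. The same counts were 101 and 58 over all 150 members, and 318 and 387 over the 1130 other abundant transcripts. In X1, replicate 4 was highest in 16 of these 23, and also in 77 of all 150 members and 874 of the 1130 other abundant transcripts. Among p53-only members, Xins replicates 2 and 3 were each highest in 9 of 20. Xins replicate 3 was highest in 24 of all 150 members and in 578 of the 1130 others, so it was often the highest library of abundant transcripts. X1 replicate 3 was highest in 14 of 20 p53-only members, against 60 of all 150 members and 145 of the 1130 others. For the 9 members at 4000 RPKM or more in Xins, 7 of them p53-only, Xins replicate 3 was highest in 6 and X1 replicate 3 in 7.

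In all, 17 members were cloned by the study for in situ hybridization, and 15 of them have the AGAT-1 mesenchymal pattern, the scattered subepidermal cells in which epidermal progeny lie before they reach the surface. All 15 are on the list lowered in both conditions, from which the study took most of its clones. They are 10% of the members and 25.9% of the 58 transcripts in the table whose in situ pattern mentions AGAT-1, a wider class. Of the other 1130 abundant transcripts, 13 (1.15%) have a pattern that mentions AGAT-1. The Xins means of the 15 members ran from 149 to 1095 RPKM with a median of 408 RPKM. Their X1 means ran from 0.537 to 11.1 RPKM with a median of 2.74 RPKM.

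The 3 of highest ratio were zpuf-3 (SMED30028142), SMED30026394 and SMED30014713. zpuf-3, named by the study and without a protein hit in its tables, was at 823, 1236, 979 and 503 RPKM in Xins and at 1.46, 0.838, 3.21 and 5.45 RPKM in X1. SMED30026394 was at 1261, 1242, 1058 and 528 RPKM in Xins and at 2.01, 0.324, 7.18 and 9.06 RPKM in X1. In both, Xins replicate 4 was the lowest Xins library and X1 replicate 4 the highest X1 library. SMED30014713 shared this, with 576, 736, 707 and 476 RPKM in Xins and 1.44, 0, 3.40 and 5.64 RPKM in X1.

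The primers with which the study cloned these transcripts are the only sequences of members used here, and those of the 3 just described are given because they fix which stretch the in situ pattern belongs to. They are written 5′ to 3′ in lower case, with the 13-base cloning tail that all primers of a side share removed.
zpuf-3 left primer: tcaagaaaagtactataacgtattcgag
zpuf-3 right primer: tagaaacttaaatgtcgacttcgtac
SMED30026394 left primer: ttagtgtttcggtcctccaagg
SMED30026394 right primer: tgccttgctattatgcagatttg
SMED30014713 left primer: taccgaatcagagtaccagtcg
SMED30014713 right primer: tgaaggtgtccatttgtagtgc

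Most members of the AGAT-1 pattern had these libraries at the extremes. Xins replicate 4 was the lowest Xins library in 13 of the 15 and replicate 2 the highest in 12, and X1 replicate 4 was the highest X1 library in 13. Over all 150 members the same counts were 58, 101 and 77, and over the 1130 other abundant transcripts 387, 318 and 874. X1 replicate 4 was thus commonly the highest library outside this pattern too. Its RPKM size was also the smallest relative to recovered reads (0.823 times), and how far this scaling set the order was not tested. AGAT-1 itself, set aside by the rule, did not share the Xins part, with 777, 803, 763 and 823 RPKM in Xins replicates 1 to 4. zpuf-6, also set aside, did share it, with 463, 617, 470 and 383 RPKM there. The other members with the pattern were SMED30009513, SMED30000902, SMED30010951, SMED30025603, SMED30001567, SMED30005644, SMED30000058, SMED30008120, SMED30030679, SMED30030422, SMED30022130 and, weakly stained, SMED30016382. The most abundant of the 15 was SMED30008120 at 1095 ± 259 RPKM in Xins and 11.1 ± 6.95 RPKM in X1. SMED30000902 (587 ± 139 RPKM in Xins) was at 0.201, 0.431, 1.59 and 8.41 RPKM in X1, with 79.1% of this in replicate 4.

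The 2 other cloned members had no clear pattern. SMED30011447, with a hazy signal noted as probably in irradiation-sensitive cells, was at 231, 272, 225 and 164 RPKM in Xins and at 0.443, 0, 0.753 and 1.97 RPKM in X1. Its lowest Xins library lay above its highest X1 library, as in every member, a separation that the choice of members favours. SMED30005740, with a haze over the whole worm, was at 426 ± 75.8 RPKM in Xins and 2.70 ± 1.94 RPKM in X1.

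Few members have a protein hit in the study's tables, which describe only transcripts on the RNAi lists or cloned by the study. A Swiss-Prot hit is given for 6 of the 53 members on the RNAi lists (11.3%), while 68.6% of all 2338 transcripts on those lists have one. Members outside the lists carry no annotation in the tables used here, so whether they have protein relatives is not known.

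The strongest of the 6 in Xins was SMED30009513, which resembles glycine amidinotransferase, the mitochondrial enzyme of the first step of creatine synthesis. It was at 731, 1078, 876 and 1067 RPKM in Xins and at 1.86, 2.31, 6.89 and 7.76 RPKM in X1, from 400 X1 reads. It has the AGAT-1 in situ pattern and encodes the same kind of enzyme as AGAT-1, whose Xins mean was 791 RPKM. SMED30030679, also with this pattern, resembles Elongation of very long chain fatty acids protein 7, an enzyme of fatty acid elongation. It was much lower, at 166, 164, 138 and 129 RPKM in Xins and 0.622, 0.303, 1.22 and 0.789 RPKM in X1.

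The other hits have no in situ pattern. SMED30022652 resembles Saposin-C, which in mammals helps lysosomal enzymes to break down sphingolipids, and was at 342, 362, 283 and 331 RPKM in Xins and 0, 0, 1.24 and 1.85 RPKM in X1. SMED30020617 resembles Endophilin-B1, a membrane-bending protein, and was at 121, 99.2, 147 and 108 RPKM in Xins and 0.131, 0.983, 0.445 and 0.0830 RPKM in X1. It was 1 of 5 members with their highest X1 level in replicate 2. SMED30035058 resembles a fly Aquaporin, a water channel, and was at 295, 221, 206 and 167 RPKM in Xins and 1.05, 0.592, 4.06 and 1.82 RPKM in X1. Venom allergen 5, the sixth hit, is described above.

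Whole lists, members and others together, were counted with limma over all transcripts tested, beside the 41.7% called higher in Xins overall. Of the 58 transcripts whose in situ pattern mentions AGAT-1, 57 passed as higher in Xins and 1 in X1, with a median log2 difference of 5.49. The gut pattern had 27 of 31 tested called higher in Xins and 3 in X1, and contributed no member. Of those lowered in both RNAi conditions, 334 of 466 were called higher in Xins and 70 in X1. The p53-only list ran the other way as a whole, with 131 of 575 called higher in Xins and 430 in X1 (median log2 difference -1.91), so that its 20 members are among the minority higher in Xins. The chd4-only list had 299 of 507 higher in Xins and 79 in X1, and the raised list 238 of 355 and 62. The medians stand beside 0.11 over all 15563 tested.

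Protein families could be read only for transcripts with a protein hit, which 6 of the 150 members have, so the counts of members below cover those 6 alone. Creatine, arginine and polyamine enzymes, which include the glycine amidinotransferases, had 15 of 15 tested called higher in Xins (median log2 difference 3.59) and 1 member. Lipid-handling proteins had 20 of 26 higher in Xins and 1 in X1, with the saposin SMED30022652 as their member. SMED30030679, which resembles an enzyme of fatty acid elongation, was not counted in this family. Membrane transporters had 48 of 63 higher in Xins and 4 in X1, with the aquaporin as their member. None of the 6 fell under lysosomal proteases (11 of 11 higher in Xins), serine proteases and carboxypeptidases (7 of 8), protease inhibitors (7 of 10, and 2 higher in X1), cytochrome P450 (15 of 18, and 1 in X1), calcium-binding proteins (12 of 14), cytoskeletal proteins (17 of 29, and 7 in X1), ferritins (2 of 3) or TNF receptor-associated factors (16 of 19, and 2 in X1).

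Most members were shorter than a typical transcript of the table. Transcript length was read from the steps of the RPKM values and is a lower bound where all reads of a transcript share a divisor. The median length was 557.5 bases for the members, 888 for the other 1130 abundant transcripts and 1332 for all transcripts. Under 500 bases were 66 members (44.0%), against 15.4% of the other abundant transcripts and 10.2% of all. Only 4 members (2.67%) exceeded 2000 bases, against 7.35% of the other abundant transcripts and 26.8% of all. The longest had 5140 bases and the shortest, SMED30030588, had 90.

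The gap in length lay at lower levels. Between 100 and 300 RPKM in Xins, the median was 405.5 bases for 60 members and 971 for 758 others. Between 300 and 1000 RPKM it was 598 bases for 65 members and 777 for 250 others. At 1000 RPKM or more, 25 members had a median of 613 bases and 122 others 662.5 bases. These lengths are of assembled transcripts, and whether the short ones are complete was not tested.

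**Figure D4:**
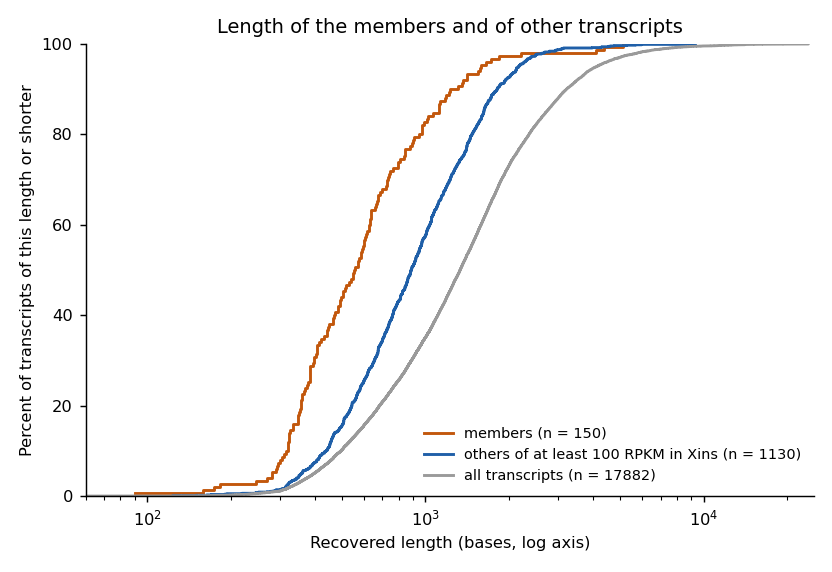
Percent of transcripts at or below each recovered length (log axis) for the 150 members, the other 1130 transcripts of at least 100 RPKM in Xins, and all 17882 transcripts. The member curve lies to the left, with medians of 557.5, 888 and 1332 bases.

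Around the limit of the choice the ratio changed slowly. The last 3 members were SMED30024325 (ratio 63.1, 260 ± 105 RPKM in Xins and 3.13 ± 3.34 RPKM in X1), SMED30005747 (61.6, 582 ± 162 and 8.46 ± 3.35 RPKM) and SMED30008776 (61.0, 221 ± 91.2 and 2.63 ± 2.52 RPKM). Just outside were SMED30002788 (60.6, 123 ± 29.6 RPKM in Xins and 1.05 ± 0.423 RPKM in X1), SMED30034489 (60.4, 203 ± 70.3 and 2.37 ± 2.78 RPKM) and SMED30015821 (59.9, 981 ± 229 and 15.4 ± 13.3 RPKM). The X1 SD of SMED30024325 and SMED30034489 exceeded their X1 mean, so the limit separates transcripts that these libraries do not. The 5 transcripts set aside were each ranked as if put back alone. AGAT-1, zpuf-4, zpuf-5 and pla2 would then have ranked 47, 59, 139 and 95 by ratio. zpuf-6, with a ratio of 57.7, would have fallen outside.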

How the data were processed

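The deposited table holds RPKM values for 17882 transcripts in 8 libraries, made by the authors from TruSeq libraries of polyadenylated RNA of sorted cells. The submitters' processing notes name CASAVA 1.8.2, Bowtie and edgeR, with settings for these libraries not given in the sources used here. Whole reads and transcript lengths were recovered from the RPKM steps (all 17882 rows whole within 0.001 of a read), which gives 14323705 to 15523242 reads per library. The size by which each RPKM column had been divided was 0.823 (X1 replicate 4) to 1.15 (Xins replicate 1) times that total.

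The members and lists were chosen with earlier results of these data known. Fold changes are on the log2(RPKM + 1) scale, Xins minus X1, which understates changes of low transcripts. Whole-table counts came from limma 3.58.1 in R 4.3.3 with a mean-variance trend, on transcripts of mean RPKM of at least 1, two-sided, with Benjamini-Hochberg adjustment at 0.05 and fraction as the only term. They measure only the spread between these libraries. The same fit was also run on simulated data in which only a small part of the transcripts changed. Far more were called in these libraries, and the outcome of that run is not reported here. Other steps used Python 3.11.15, pandas 2.3.3 and scipy 1.17.1.

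Lists came from the study's tables of RNAi experiments and in situ patterns and from searches of its Swiss-Prot descriptions; only membership was taken. Named were the 12 members of highest ratio, the 10 of highest Xins level, all annotated members, 3 on either side of the limit, the 3 highest and 3 lowest in CV among Xins libraries, and the 3 of widest X1 range; others are marked as chosen after their values were seen. Replicate numbers were not used to pair the libraries in the main fit. No genome was used here.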

Additional observations from a re-analysis of the deposited data

Results flagged for a closer look

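In each fraction, a library was singled out when its gap to the nearest other library exceeded, as a share of the range of the 4 libraries, Dixon's 95% critical value. This was done for the named members and for the members' share of summed RPKM, 104 groups of 4 in all. It picked out 11 groups. Chance flags about 1 in 20 groups, but some members were named for their spread between libraries (SMED30028512, SMED30032042 and SMED30019451 among those picked out), so that rate does not apply to this set.

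In Xins, replicate 2 stood apart in 4 members and replicate 3 in 2. SMED30000802 was at 612 RPKM in replicate 2, against 289 to 330 RPKM in the other Xins libraries. SMED30013734 was at 1171 RPKM there, against 737 to 754 RPKM, and SMED30028512 at 418 RPKM, against 100.1 to 151 RPKM. SMED30019451 was at 182 RPKM there, against 168 to 170.5 RPKM, a small step in a very steady transcript. In replicate 3, SMED30002134 reached 24786 RPKM, against 14725 to 16312 RPKM in the others, and SMED30009302 reached 5375 RPKM, against 3810 to 4005 RPKM.

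In X1, replicate 3 stood apart in 3 members and replicate 4 in 2. SMED30032042 was at 15.9 RPKM in replicate 3, against 0 to 0.214 RPKM in the other X1 libraries. SMED30028512 was at 4.34 RPKM there, against 0.383 to 0.729 RPKM, and SMED30018781 at 2.66 RPKM, against 0 to 0.343 RPKM. In replicate 4, SMED30000902 was at 8.41 RPKM, against 0.201 to 1.59 RPKM, and SMED30000802 at 0.955 RPKM, against 0 RPKM in the other 3 libraries.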

How the results depend on the processing

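The choice of members was little affected by the settings tried. Leaving out 1 library at a time, between 139 (without Xins replicate 2) and 148 of the 150 were chosen again, and 127 were chosen in all 8 such settings. Other minimum levels, ratio pseudocounts, medians and scalings gave between 118 and 146, the lowest with a minimum of 200 RPKM, which 118 members reach. All 150 kept their fractions apart under the 3 other scalings, which the choice of members by ratio favours. The median log2 difference of the members, 6.94, ran from 6.74 to 7.12 with 1 library left out and from 6.70 to 7.12 under the other scalings, but was 7.98 with a pseudocount of 0.1 and 5.71 with one of 5, because their X1 levels are near these values. No named member changed direction, which the choice by a high ratio all but fixes, so this is no support. Under other pseudocounts and scalings, the log2 difference of a named member moved by at least its SD between libraries in 67 of 255 comparisons. The scalings shifted the median of all transcripts by 0.16 (common sum), 0.20 (summed reads) and -0.43 (quantile). The members' share in Xins was 17.0% to 17.5% with 1 library left out and 11.7% by recovered reads. Transcripts called higher in Xins numbered 6492, and 3708 with a minimum mean of 5 RPKM, which tests fewer transcripts. With library sizes from summed reads the calls were 7302 in Xins and 4663 in X1, and after quantile normalization 5242 and 7178, so the split between directions depends on the scaling. With the minimum of 5 RPKM the lists called higher in Xins also shrank, to 218 calls from 334 for transcripts lowered in both RNAi conditions, 175 from 299 for chd4 only, 146 from 238 for raised, 13 from 27 for gut, 7 from 15 for cytochrome P450, 5 from 16 for TNF receptor-associated factors, 1 from 2 for ferritins and 23 from 48 for transporters (80 with no filter). Ferritin calls were also 1 after quantile normalization and without any 1 Xins replicate. In the direction of X1, transporters had 12 calls after quantile normalization in place of 4, gut had 1 in place of 3 under common sum or summed reads, and AGAT-1 pattern, serine protease, cytochrome P450 and lipid-handling calls moved by 1.

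Whether the replicate numbers pair the libraries is not said in the labels. Deviations of same-numbered libraries from their fraction means correlated across transcripts at 0.27, -0.19, -0.12 and -0.02 for numbers 1 to 4. These values cannot show whether the cells were collected together. With the replicate block 6454 transcripts were called higher in Xins and 5457 in X1. Depth limits the X1 levels of the 44 members that had under 30 X1 reads in all.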
